A study of Mus musculus with 12 samples.

Results

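The genes described here make and load MHC class I molecules, which show peptides from inside a cell at its surface. They were 9 named genes, B2m, H2-K1, H2-D1, Tap1, Tap2, Tapbp, Psmb8, Psmb9 and Psmb10, out of 25429 genes measured. A gene probe belonged to the set if its deposited gene name, or the current symbol of its accession, was one of these names. The rule found 16 probes of 60 bases, and all 9 genes passed the filter on dim probes, which kept a probe if its signal was well above background on at least 1 array.

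The study asked whether Bmi1, a polycomb gene, or agents that act on the hedgehog pathway could take part in turning mouse fibroblasts into induced pluripotent stem (iPS) cells together with Oct4. Each of 12 RNA samples was hybridised once to a one-colour Agilent array of 45018 spots. The iPS lines came from fibroblasts of embryos, apart from 2 lines from adult tail tips. They comprised 2 Bmi1-Oct4 lines (Bmi1 and Oct4 introduced), 1 Shh-Oct4 line (embryonic fibroblasts made neural stem cell-like with sonic hedgehog before Oct4 was transduced), 2 oxysterol-Oct4 and 2 purmorphamine-Oct4 lines (made in the same way with those agents), and 2 tail-tip oxysterol-Oct4 lines (oxysterol and Oct4). Oxysterols and purmorphamine are small molecules that activate hedgehog signalling through Smoothened. The other samples were 1 sample of neural stem cell-like spheres from embryonic fibroblasts carrying Bmi1, 1 of embryonic stem (ES) cells of 129/Ola mice, and 1 of mouse embryonic fibroblasts (MEF). Bmi1 or the agents were given to every iPS line and to the spheres, so no line received Oct4 alone. The labels used here give no strain for the fibroblasts, no dose and no passage, and do not say whether lines 1 and 2 of a group came from separate cultures, so the p-values measure the spread between these samples, which may be partly technical.

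MHC class I molecules pair a heavy chain, in mouse H2-K or H2-D, with beta-2-microglobulin, the product of B2m. The immunoproteasome subunits Psmb8, Psmb9 and Psmb10 replace their constitutive counterparts and change which peptides are cut, the Tap1-Tap2 transporter carries the peptides into the endoplasmic reticulum, and tapasin, the product of Tapbp, holds the empty class I molecule at the transporter until a peptide is bound. Interferon, above all interferon gamma, induces most of these genes, and pluripotent cells are known for low class I levels.

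The promoters show which of the genes carry the letters that interferon and NF-kappaB factors are known to bind. Sequences are from RefSeq on GRCm38.p6, read on the gene's own strand in a window of 250 bases before to 50 after each annotated start, and 8 of the 9 genes were matched by symbol. Each stretch below ends at the base before the start, with matches of interferon and kappaB motifs in capitals and CCAAT boxes left in lower case.
B2m, chr2:122147537-122147686, plus strand: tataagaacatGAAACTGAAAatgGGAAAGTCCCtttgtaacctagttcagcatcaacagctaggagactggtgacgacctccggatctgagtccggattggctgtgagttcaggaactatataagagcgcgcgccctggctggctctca
H2-K1, chr17:34000348-34000497, minus strand: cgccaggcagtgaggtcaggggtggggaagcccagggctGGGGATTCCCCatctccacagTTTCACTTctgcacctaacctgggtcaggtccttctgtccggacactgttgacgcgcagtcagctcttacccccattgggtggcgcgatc
H2-D1, chr17:35262914-35263093, plus strand: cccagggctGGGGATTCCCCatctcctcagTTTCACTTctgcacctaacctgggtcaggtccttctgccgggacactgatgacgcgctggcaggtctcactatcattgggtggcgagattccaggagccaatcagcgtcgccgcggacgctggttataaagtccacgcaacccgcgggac
Psmb8, chr17:34198045-34198194, plus strand: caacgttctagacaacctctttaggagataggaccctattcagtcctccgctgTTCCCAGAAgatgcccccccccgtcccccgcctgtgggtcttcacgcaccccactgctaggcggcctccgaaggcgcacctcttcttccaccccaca
Tap1, chr17:34187376-34187555, plus strand: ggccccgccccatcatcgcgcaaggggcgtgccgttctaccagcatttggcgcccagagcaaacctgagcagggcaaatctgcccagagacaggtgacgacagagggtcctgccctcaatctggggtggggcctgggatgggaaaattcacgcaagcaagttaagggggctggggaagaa

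The windows were searched on both strands for 5 motifs. They were an interferon-stimulated response element (ISRE) core, GAAANNGAA, an interferon regulatory factor (IRF) core, AANNGAAA, a gamma-activated site (GAS), TTCNNNGAA, the CCAAT box and the kappaB motif. The ISRE and IRF cores can overlap, as they do in B2m. Of 32851 promoters of that length, 8.56% held the ISRE core, 23.9% the IRF core, 8.3% the GAS motif, 37.4% the CCAAT box and 4.51% the kappaB motif. In B2m the first run of capitals holds an ISRE core at bases -139 to -131 and an IRF core at -137 to -130, and the next run is a kappaB match at -126 to -117. In H2-K1 the capitals mark kappaB matches from -111 to -101 and an IRF core at -90 to -83. H2-D1 carries the same arrangement further from its start, kappaB matches from -171 to -161 and an IRF core at -150 to -143. When H2-K1 and H2-D1 were laid side by side on the kappaB match without gaps, 157 of 179 bases were identical (87.7%). Psmb8 has a GAS match at -97 to -89. Tap1 and Psmb9 are read away from each other, and 225 bases separate their annotated starts, so the printed Tap1 stretch also lies in front of Psmb9 on the other strand. The windows of Tap1, Tapbp, Psmb9 and Psmb10 hold none of these letters for ISRE, IRF, GAS or kappaB, which says nothing of these factors outside the windows. The annotated promoters and motif matches describe the reference genome, and nothing was measured at them here.

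**Figure D1:**
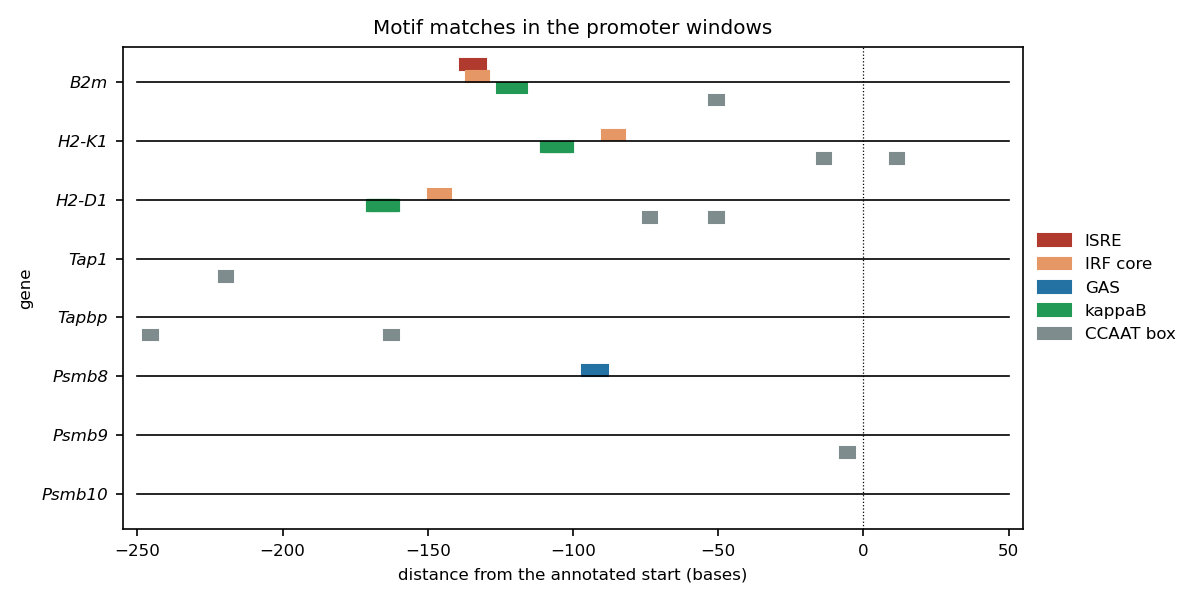
Motif matches in the promoter windows of 8 of the genes. The horizontal axis is the distance in bases from the annotated start, each row is a gene, and coloured bars are matches on either strand. B2m, H2-K1 and H2-D1 hold both an IRF core and a kappaB match, whereas Psmb8 holds a GAS match.

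The arrays were first checked for depth and for the identity of the cells. The share of spots well above background ran from 58.4% to 80.0% between arrays, and the 3 array slides each held several samples. Of 9 pluripotency genes measured, 8 passed in the iPS lines against MEF, all higher (Pou5f1, Nanog, Sox2, Esrrb, Zfp42, Lin28a, Tdgf1 and Dppa5a). Of 9 control genes measured, Polr2a passed, higher (difference 1.77, adjusted p = 0.0258). Pou5f1, which encodes Oct4, averaged 3.68 ± 0.30 in the iPS lines (SD, n = 9) and -6.66 in MEF, in log2 units relative to each array's 75th percentile. That log2 level is the scale of every level below. The summed linear level of the 9 genes was 126 to 183 in the lines, 0.872 in the spheres, 153 in ES and 1.43 in MEF. Among the control genes Hprt did not pass but was not steady. It read 5.11 in MEF, where it was saturated, -0.73 in ES and -1.83 to 2.74 in the lines. Its highest lines were Bmi1-Oct4 line 1, purmorphamine-Oct4 line 2 and tail-tip line 2. Of 8 neural stem cell markers in the spheres against MEF, only Pax6 was at least 2-fold higher, and Fabp7 and Prom1 were lower. In the description field the spheres are called iPS cells, but the title and source were followed.

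B2m, the light chain shared by all class I molecules, was measured by 3 probes. The brightest, spotted 10 times per array, read 3.85 and 2.11 in the Bmi1-Oct4 lines, 2.78 in the Shh-Oct4 line, 3.22 and 2.01 in the oxysterol-Oct4 lines, 2.04 and 4.63 in the purmorphamine-Oct4 lines and 2.47 and 4.94 in the tail-tip lines. It read 5.12 in the spheres, 2.50 in ES and 5.15 in MEF. By this brightest probe, Bmi1-Oct4 line 1, purmorphamine-Oct4 line 2 and tail-tip line 2 lay above the other 6 lines and below MEF. Spots were saturated in MEF, the spheres and tail-tip line 2, so those levels are lower limits. In MEF the spread of the 10 spots was 0.00164 log2 units (SD), at the scanner's ceiling, against 0.22 for the median array. The iPS lines averaged 3.12 ± 1.13 (SD, n = 9). The measured difference from MEF of -2.04 (SE 1.09) did not pass (limma adjusted p = 0.252), and no fold is given, since MEF and 1 of the lines averaged were saturated. All 9 lines lay below MEF as measured. The next brightest B2m probe had no saturated spot and read between 2.24 and 3.92 in the lines, 4.28 in the spheres, 2.18 in ES and 4.26 in MEF. Oxysterol-Oct4 line 1 read 3.52 by it, just below tail-tip line 2 at 3.57 and Bmi1-Oct4 line 1 at 3.66. By this probe the difference from MEF was -1.29 (SE 0.72, limma adjusted p = 0.285 over 37816 probes), and all 9 lines lay above ES. In a bulk sample, fewer cells that express a gene and less RNA per cell cannot be told apart.

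H2-D1, a classical heavy chain that presents peptides to CD8 T cells, varied among the lines like B2m. Its level was 2.45 and -0.11 in the Bmi1-Oct4 lines, 0.00 in the Shh-Oct4 line, 1.39 and 1.07 in the oxysterol-Oct4 lines, 0.68 and 2.75 in the purmorphamine-Oct4 lines, and 0.14 and 2.61 in the tail-tip lines. The spheres read 3.63, ES 1.43 and MEF 3.76. All 9 lines lay below MEF, and the line nearest to it was purmorphamine-Oct4 line 2. The fitted difference from MEF was -2.54 (SE 1.11, 95% interval -5.01 to -0.07), a level 5.82-fold lower, with an unadjusted p of 0.0447 and a limma adjusted p of 0.169. The gene's probe lies in the sequence for the cytoplasmic tail and crosses an intron, at chr17:33361850-33362082 in the mm7 build that the array files use. The probe's sequence is given with those of H2-K1 since transcripts of near-identical paralogues may bind the same probe.
H2-D1 probe, plus strand: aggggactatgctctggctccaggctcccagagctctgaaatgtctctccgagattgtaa
H2-K1 probe at chr17:32077868-32078115, minus strand: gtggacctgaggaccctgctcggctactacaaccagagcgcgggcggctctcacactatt
H2-K1 probe at chr17:32077678-32077737, minus strand: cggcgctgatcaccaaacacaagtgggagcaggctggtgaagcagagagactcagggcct

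H2-K1, another classical heavy chain, gave different answers by probe. No RefSeq accession is listed for any H2-K1 probe, so their names were not checked by accession. The first H2-K1 probe printed above, the brightest and therefore the one used for the gene, crosses an intron between the exons of the alpha-1 and alpha-2 domains. It read 3.68 and 3.60 in the Bmi1-Oct4 lines, 3.25 in the Shh-Oct4 line, 3.1 and 4.001 in the oxysterol-Oct4 lines, 2.75 and 3.57 in the purmorphamine-Oct4 lines, and 3.26 and 4.15 in the tail-tip lines. The spheres read 4.92, ES 2.41 and MEF 3.36. By this probe 5 lines lay above MEF and 4 below, and the difference was 0.12 (SE 0.52, adjusted p = 0.899). All 9 lines lay above ES, by 1.07 (SE 0.52, adjusted p = 1). The H2-K1 probe within the alpha-2 exon, printed last, read 0.42, -0.39, -0.51, -0.09, -0.62, -0.34, -0.39, -0.55 and 1.53 in the lines in the same order, 0.75 in the spheres, -1.14 in ES and 1.91 in MEF. Here all 9 lines lay below MEF, by -2.02 (SE 0.72, limma adjusted p = 0.111 over 37816 probes). The remaining H2-K1 probe, spotted 10 times per array, lies further along the gene and had lines from -1.96 to 2.34, spheres at -0.06, ES at -0.38 and MEF at 3.26. Its difference from MEF was -3.00 (SE 1.34, adjusted p = 0.187), and its 10 spots spread by no more than 0.32 (SD) on any array. The SD of this probe over the 9 lines was 1.40. Why the H2-K1 probes differ was not tested. A dimmer probe named H2-D1, whose accessions match no current RefSeq symbol here, ran the other way from the H2-D1 probe, with all 9 lines above MEF and a difference of 1.72 (SE 1.01, adjusted p = 0.307). It is placed at chr17:34358688-34358747 on the minus strand in mm7, away from the H2-D1 probe and on the other strand. It is therefore not read as a measure of H2-D1.

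**Figure D2:**
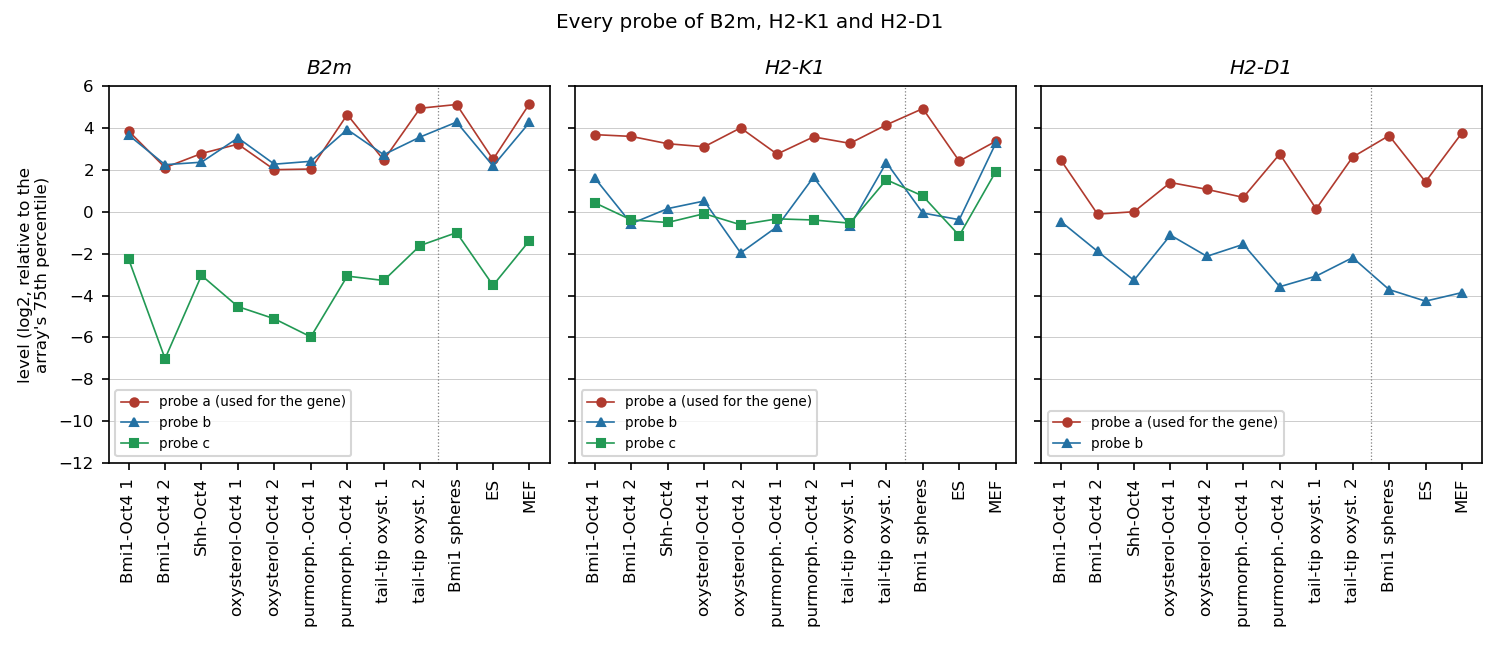
Levels of every probe of B2m, H2-K1 and H2-D1 on the 12 arrays, in log2 units relative to each array's 75th percentile, with the 9 iPS lines left of the dotted line and spheres, ES and MEF right of it. Lines join the points of 1 probe. In H2-D1 probe b is the dim probe that is placed elsewhere on chr17. In H2-K1 probe a is highest in the spheres, while probes b and c are highest in MEF. In B2m probes a and b have the same 3 highest lines, but tail-tip line 2 reads 4.94 by probe a and 3.57 by probe b.

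The peptide transporter is made of Tap1 and Tap2. Tap1 read -4.59 and -3.84 in the Bmi1-Oct4 lines, -3.77 in oxysterol-Oct4 line 2, -3.95 and -3.62 in the purmorphamine-Oct4 lines, and -4.04 and -3.56 in the tail-tip lines. It was not well above background in the Shh-Oct4 line and in oxysterol-Oct4 line 1, measured at -6.31 and -6.47 there. The spheres read -3.09, ES -3.22 and MEF -2.21, so all 9 lines lay below ES and below MEF. The difference from MEF was -2.25 (SE 1.10, adjusted p = 0.212) and from ES -1.24 (SE 1.10, adjusted p = 1). Both differences include the lines where Tap1 was not well above background, so their sizes are uncertain. Tap2 lay within 0.55 log2 units in the 9 lines, at -0.70 ± 0.17 (SD, n = 9), against -0.97 in ES and -0.78 in MEF, and read 0.91 in the spheres.

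Tapbp had levels by the probe used between 4.89 and 5.43 in the lines, 5.09 in the spheres, 5.26 in ES and 4.98 in MEF. Spots of it were saturated on 9 of the 12 arrays, ES and MEF included, so no fold is given. Its other, dim probe had no saturated spot and read -3.83 to -2.84 in the lines, -2.90 in the spheres, -2.21 in ES and -3.03 in MEF. All 9 lines lay below ES by that probe, by -1.18 (SE 0.44, unadjusted p = 0.0227), which did not pass among 37816 probes (adjusted p = 0.898).

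Among the immunoproteasome genes, Psmb8 varied most. It read 3.39 and -0.14 in the Bmi1-Oct4 lines, -1.87 in the Shh-Oct4 line, 2.29 and 0.16 in the oxysterol-Oct4 lines, -0.07 and 3.34 in the purmorphamine-Oct4 lines and -0.33 and 3.35 in the tail-tip lines. The spheres read 3.38, ES -0.95 and MEF 2.47. Of the lines 3 were above MEF, oxysterol-Oct4 line 1 was close to it, and the other 5 lay between -1.87 and 0.16. The probe for Psmb8 crosses an intron in coding sequence at chr17:32280725-32281049 (mm7, plus strand) and reads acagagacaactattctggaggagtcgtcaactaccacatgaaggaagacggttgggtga. The neighbouring Psmb8 probe had the same high lines, at 2.04 for the highest, against -0.50 in ES and 0.61 in MEF. Psmb9 read -0.19 ± 0.77 in the lines (SD, n = 9), 0.83 in the spheres, -1.44 in ES and 0.93 in MEF, and its highest lines were tail-tip line 2 at 1.04 and purmorphamine-Oct4 line 2 at 0.80. All 9 lines lay above ES and 8 lay below MEF. Psmb10 had another order, highest in oxysterol-Oct4 line 1 at 2.50 and tail-tip line 1 at 1.79 and lowest in the Shh-Oct4 line at 0.14, against 1.20 in the spheres, 0.57 in ES and 1.94 in MEF.

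**Figure D3:**
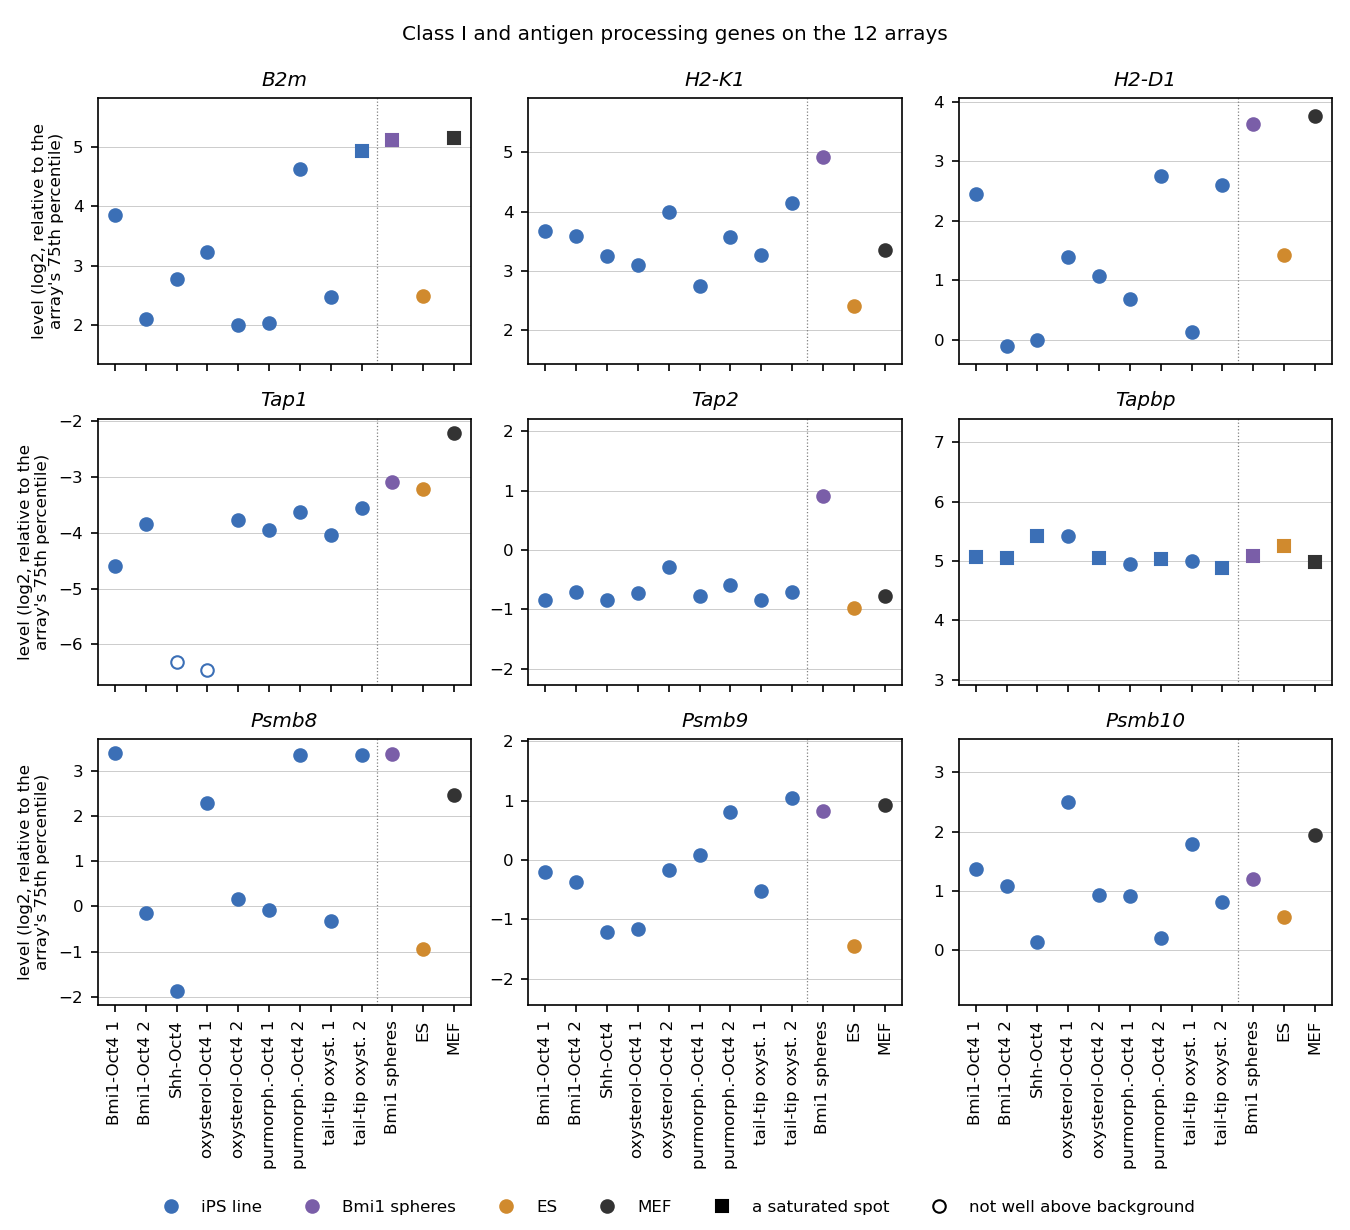
Levels of the 9 genes on the 12 arrays, by the probe used for each gene, in log2 units relative to each array's 75th percentile. Squares mark saturated spots and open circles spots not well above background. B2m, H2-D1 and Psmb8 are high in the same 3 iPS lines (Bmi1-Oct4 1, purmorphamine-Oct4 2 and tail-tip 2), whereas Tap2 varies little among the lines. Tapbp is saturated in 6 of the 9 lines, so its spread cannot be seen.

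By the probes used, the lines of 3 of the groups differed from each other severalfold in B2m, H2-D1 and Psmb8. In Bmi1-Oct4 lines 1 and 2, B2m differed 3.35-fold, H2-D1 5.89-fold and Psmb8 11.6-fold, with line 1 the higher. In the purmorphamine-Oct4 lines the same genes differed 6.05-, 4.20- and 10.7-fold with line 2 the higher. In the tail-tip lines they differed 5.55-, 5.54- and 12.8-fold as measured, also with line 2 the higher and B2m saturated in it. The B2m size depends on the probe. By the unsaturated B2m probe lines 1 and 2 read 3.66 and 2.24 (Bmi1-Oct4), 2.41 and 3.92 (purmorphamine-Oct4) and 2.72 and 3.57 (tail-tip). Each of these pairs lay closer together than by the probe used. The median difference over all genes was 1.47-, 1.48- and 1.61-fold in these 3 pairs. The oxysterol-Oct4 lines differed 2.33-fold in B2m, 1.25-fold in H2-D1 and 4.35-fold in Psmb8, with line 1 the higher, and 1.72-fold in the median gene. The SD over the 9 lines was 1.98 for Psmb8, above that of 94.0% of all genes, and 1.15 and 1.13 for H2-D1 and B2m. Tap1 also had 1.13, but it was not well above background in the Shh-Oct4 line and in oxysterol-Oct4 line 1. In the other lines Tap1 ran only from -4.59 to -3.56, so its SD rests on dim values. The SD of Tap2 was 0.17, above that of 0.543% of genes. The Tapbp probe used was saturated in 6 of the 9 lines, so its spread is not read, and the SD of its unsaturated probe was 0.30. The median SD was 0.77 over the 9 members and 0.77 over all genes. Across the 12 arrays, which share a normalization, H2-D1 had a Pearson correlation of 0.90 with the mean of the other 8 members, B2m 0.85, Psmb8 0.82 and Psmb9 0.80, while H2-K1 had 0.61, Tap2 0.49, Tap1 0.40 and Psmb10 0.12. Tapbp had -0.51, but its probe was saturated on 9 of the 12 arrays, so that value is not read.

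Markers of interferon response and of fibroblasts were read on the same arrays. Over 17 interferon-stimulated genes, each centred on its mean over arrays, the median level was 1.96 in Bmi1-Oct4 line 1, 2.37 in purmorphamine-Oct4 line 2 and 2.06 in tail-tip line 2. It was between -2.02 and -0.15 in the other 6 lines, 0.86 in the spheres, -2.30 in ES and 3.81 in MEF. The summed linear level of these genes ran from 8.29 to 41.8 in the lines and was 29.3 in the spheres, 6.57 in ES and 80.8 in MEF. Over 12 fibroblast genes the centred median of tail-tip line 2 was 1.02 and that of purmorphamine-Oct4 line 2 was 0.46, but it was -1.32 in Bmi1-Oct4 line 1, against 4.16 in MEF, and the summed level was 58.2, 41.6 and 16.9 in these 3 lines against 155.6 in MEF. The lines high in B2m, H2-D1 and Psmb8 were also high in interferon-stimulated genes, and 2 of the 3 had the highest fibroblast signal among the lines. The summed level of 12 leukocyte genes was 8.93 to 17.4 in the lines, 8.63 in the spheres, 10.1 in ES and 8.98 in MEF, and that of 13 class II and antigen-presenting cell genes 5.61 to 12.97 in the lines, 12.6 in the spheres, 8.80 in ES and 5.27 in MEF. The leukocyte sum hides opposite moves, since 5 of the 12 genes were at least 2-fold lower in ES than in MEF and 3 higher. Tyrobp, Adgre1 and Fcer1g read 0.93, 0.59 and 1.93 in MEF and -6.01, -5.80 and -2.06 in ES. Laptm5 and Cd68 read -4.68 and 0.08 in MEF and 2.57 and 1.73 in ES. In purmorphamine-Oct4 line 2, Fcer1g read 1.90, Adgre1 -0.44 and Tyrobp -1.59. Against MEF, 4 of the 12 fibroblast genes passed lower in the lines (Postn, Fap, Fbn1 and Thy1), 1 of the 12 leukocyte genes passed higher (Laptm5), and of 8 neural genes Pax6 passed higher and Gfap lower. The part of fibroblast RNA, leukocytes or interferon in the class I levels was not tested.

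**Figure D4:**
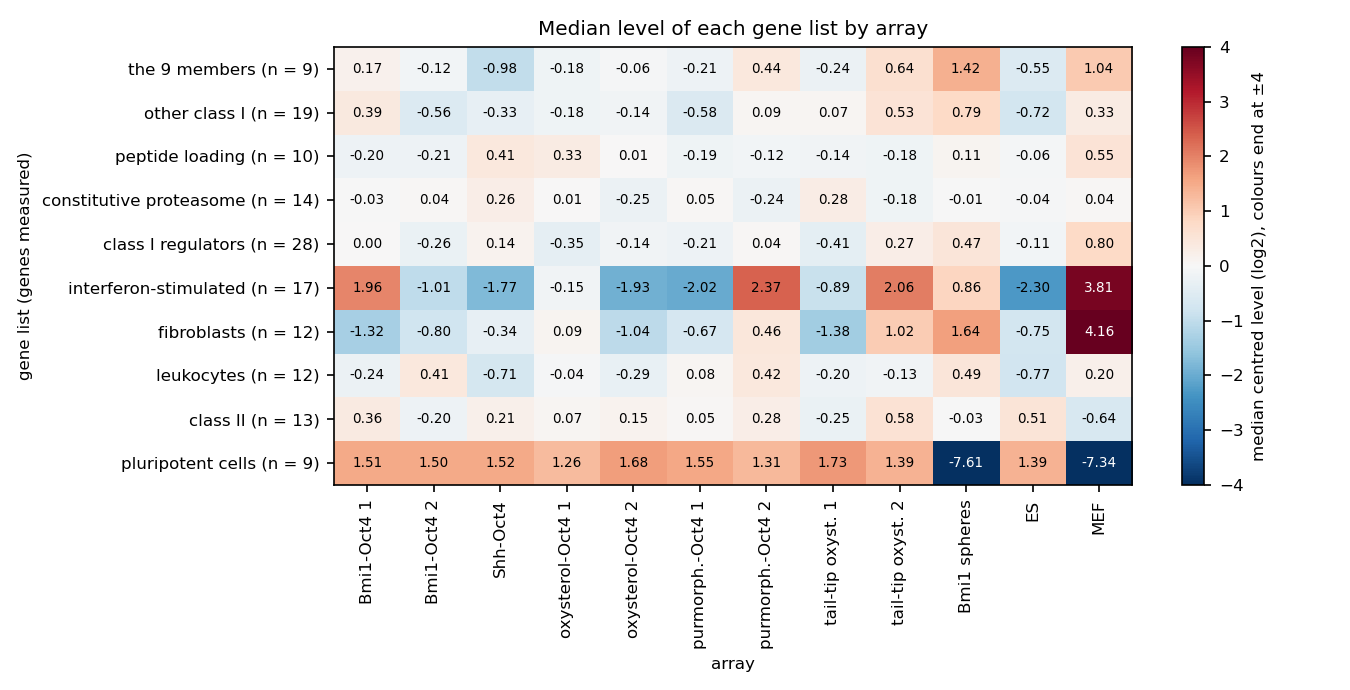
Median level of the 9 members and of 9 other gene lists on each array, each gene centred on its mean over the 12 arrays (log2). Rows are lists with the number of genes measured, columns are arrays. The interferon-stimulated list is high in MEF (3.81) and in 3 iPS lines (1.96 to 2.37), while the constitutive proteasome list stays within 0.28 of 0 on every array.

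Set against MEF, the class I and processing genes did not pass in the iPS lines. By limma with Benjamini-Hochberg adjustment over 25429 genes, 0 of the 9 members were called, where 8.17% of all genes were called higher and 2.75% lower. At an unadjusted p under 0.05 the count was 1, H2-D1, where 27.6% of all genes were under 0.05. Adjusted p-values of the members ran from 0.169 to 0.912. Among the members 6 had negative differences and 3 positive, and their median was -1.12, against 0.45 over all genes tested. These counts take each gene by its probe used, and H2-K1 was positive by that probe. By the other H2-K1 probes the difference was -2.02 (95% interval -3.62 to -0.42) and -3.00 (-5.97 to -0.04), and both intervals exclude 0. The remaining members with intervals were Psmb8 at -1.35 (95% interval -5.49 to 2.80), Psmb9 at -1.12 (-2.84 to 0.61), Psmb10 at -0.86 (-2.53 to 0.82) and Tap2 at 0.07 (-0.71 to 0.85). The MEF sample is 1 array, so its own spread is not measured and was taken to equal that of the lines. Bmi1-Oct4 line 1, purmorphamine-Oct4 line 2 and tail-tip line 2 were the 3 lines whose arrays correlated most with MEF over all genes. Without them, a choice made after seeing the data that fixes the direction, B2m (-2.72, limma adjusted p = 0.0313) and H2-D1 (-3.23, adjusted p = 0.0284) were called. Within the slide that held MEF, ES and the Bmi1-Oct4 lines, no gene passed in a fit with 1 residual degree of freedom.

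Set against ES, 0 of the 9 members were called by limma, 0 at an unadjusted p under 0.05, and every adjusted p was 1. Of all genes 0.00787% were called higher and 0.0197% lower. The median member difference was 0.51, against 0.04 over all genes. Psmb8 lay at 2.07 (95% interval -2.07 to 6.22), with 8 of 9 lines above ES. By the other Psmb8 probe the difference was 0.56 (-3.12 to 4.25), with 4 of 9 lines above ES. Psmb9 lay at 1.25 (-0.47 to 2.98) with 9 of 9, B2m at 0.62 (-1.80 to 3.04) with 5 of 9 and H2-D1 at -0.21 (-2.68 to 2.26) with 3 of 9. The intervals of B2m, H2-D1 and Psmb8 allow differences of several-fold either way. Those of Psmb9 and of H2-K1 (-0.07 to 2.21) lie mostly above 0. A p that misses the threshold does not show equal levels.

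**Figure D5:**
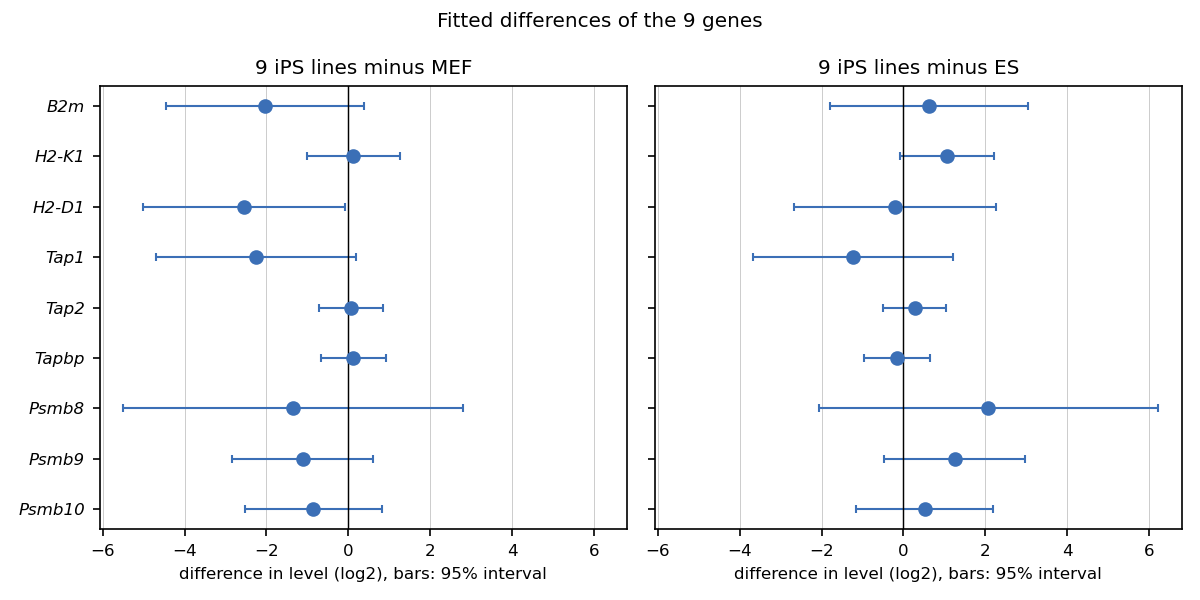
Fitted differences of the 9 genes in the 9 iPS lines against MEF (left) and against ES (right), in log2 units, with 95% intervals from limma. Each gene is shown by the probe used for it. By these probes the intervals against MEF include 0 for every gene except H2-D1, and those against ES include 0 for every gene. The other H2-K1 probes, not shown, have intervals against MEF that lie below 0.

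The donor tissue and the factor were compared between groups of lines. These comparisons could miss large changes. In simulated data, tail-tip against embryonic lines called 0 of 50 genes changed 16-fold. Bmi1-Oct4 against hedgehog-agonist lines called 0 of 50 genes changed 4-fold and 16 of 50 changed 16-fold. A count of 0 called therefore does not show equal levels. Tail-tip against embryonic oxysterol-Oct4 lines gave 0 called members, 0 at an unadjusted p under 0.05, and 0% of all genes called higher and 0% lower by limma (1640 genes at an unadjusted p under 0.05). B2m averaged 3.70 ± 1.75 in the tail-tip lines, 1 of them saturated, and 2.62 ± 0.86 in the embryonic lines (SD, n = 2 each). By the unsaturated B2m probe the difference was 0.25 (SE 0.82), against 1.09 by the probe used. Psmb8 averaged 1.51 ± 2.60 and 1.23 ± 1.50 in the same order. The member with the largest difference was Tap1, at -3.80 ± 0.34 in the tail-tip lines and -5.12 ± 1.91 in the embryonic lines, a difference of 1.32 (SE 0.89, adjusted p = 0.798), with Tap1 dim in 1 embryonic line. The tail-tip lines lay on 1 slide and the embryonic lines on another, so slide and donor tissue cannot be told apart. Bmi1-Oct4 against the 5 hedgehog-agonist Oct4 lines also gave 0 called members, 0 at an unadjusted p under 0.05, and 0% of all genes in each direction (2516 genes at an unadjusted p under 0.05). Psmb8 averaged 1.62 ± 2.50 in the Bmi1-Oct4 lines (SD, n = 2) and 0.77 ± 2.06 in the hedgehog-agonist lines (SD, n = 5), and the difference from the mean of the 3 groups was 1.29 (SE 1.59, adjusted p = 0.946). H2-D1 averaged 1.17 ± 1.81 and 1.18 ± 1.02 in the same order. These differences were smaller than the spread between lines. No slide held lines of both kinds, so slide and factor cannot be told apart.

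The single arrays allow values but no test. In the spheres against MEF, Tap2 was 3.22-fold and H2-K1 2.95-fold higher and no member was at least 2-fold lower, where 33% of all genes were at least 2-fold higher and 17.6% lower. The H2-K1 value rests on the probe used, since the other H2-K1 probes read -0.06 and 0.75 in the spheres and 3.26 and 1.91 in MEF. In ES against MEF, 6 of the 9 members were at least 2-fold lower and 0 higher, where 26.7% of all genes were higher and 20.6% lower. Psmb8 was 10.7-fold lower, B2m 6.30-fold as measured with MEF saturated, Psmb9 5.16-fold, H2-D1 5.03-fold, Psmb10 2.59-fold and Tap1 2.02-fold. The unsaturated B2m probe read 2.18 in ES and 4.26 in MEF, a smaller difference than by the probe used. Tap2 was within 2-fold, and Tapbp was saturated in both. H2-K1 was within 2-fold by the probe used, but its other probes read -0.38 and -1.14 in ES, against 3.26 and 1.91 in MEF. The other Psmb8 probe read -0.50 in ES and 0.61 in MEF, a smaller difference than by the probe used.

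Other class I and class I-like genes did not move as one group. Of 25 listed, 19 were measured, with a median difference of the iPS lines from MEF of -0.19. Against MEF 3 passed higher and 2 lower, where 8.17% of all genes were called higher and 2.75% lower. H2-T22, a non-classical molecule recognised by gamma-delta T cells, averaged -2.99 ± 0.58 in the lines (SD, n = 9) and read 1.99 in MEF, a difference of -4.98 (SE 0.62, limma adjusted p = 0.000691), and its other probe also lay below MEF in all 9 lines. Hfe, which regulates iron uptake, averaged -4.005 ± 1.04 in the lines and read -0.29 in MEF (difference -3.71, adjusted p = 0.0431). The Hfe call was lost with the mean of its probes (adjusted p = 0.059), without the 3 lines most like MEF (adjusted p = 0.0583) and without any 1 of 5 lines, Bmi1-Oct4 line 1, either oxysterol-Oct4 line or either purmorphamine-Oct4 line (adjusted p 0.0529 to 0.0592). H2-M3, which presents formylated peptides, averaged -1.16 ± 0.47 in the lines and read -4.19 in MEF (difference 3.03, adjusted p = 0.00574), while its other probe was well above background on 1 array only and the call was lost with the mean of both (difference 1.69, adjusted p = 0.0873). H2-Bl averaged 1.33 ± 0.84 in the lines, against -6.19 in the spheres, 1.29 in ES and -6.35 in MEF, and passed at 7.68 (SE 0.84, adjusted p = 0.000312). Of the 3 H2-Bl probes another gave 9.28, but the one remaining gave -1.97, so the direction depends on the probe. Azgp1, a secreted class I-like protein, passed (adjusted p = 0.0351) but was well above background in 3 lines and not in MEF, at least 1.43-fold higher. Its difference of 1.89 became 0.43 with normexp (adjusted p = 0.426) and 0.40 with quantile normalization (adjusted p = 0.794). The Azgp1 call was also lost with slide as a fixed block, an intensity trend and the model of 8 groups. It was lost too without the tail-tip lines, without the 3 lines most like MEF and without several single lines. H2-T10, whose probe also lists H2-T22 transcripts, read -0.43 in Bmi1-Oct4 line 1, -1.81 in purmorphamine-Oct4 line 2 and -1.27 in tail-tip line 2, was dim in the other 6 lines, and read 3.31 in MEF (difference -8.53, adjusted p = 0.0968). Mr1, which presents vitamin metabolites, read -1.21, -2.26 and -0.60 in the same 3 lines, was well above background in 4 lines in all, and read 2.12 in the spheres and 0.98 in MEF (adjusted p = 0.229), and H2-Q2 differed by -3.98 (adjusted p = 0.134).

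Neither the constitutive core proteasome nor the loading factors passed. Of 14 constitutive core subunits 0 were called and the median difference from MEF was -0.02, with Psmb4 (-1.02, adjusted p = 0.235) and Psma7 (-0.81, adjusted p = 0.15) farthest from 0. Of 10 peptide loading and trimming genes 0 were called. Among them Erap1, which trims peptides in the endoplasmic reticulum, averaged -4.11 ± 1.84 in the lines, well above background in 6 of them and all 9 below the 0.01 read in MEF, a difference of -4.13 (adjusted p = 0.157). Of 4 proteasome regulators measured 0 were called, the proteasome activator subunit Psme1 being at -0.56 (adjusted p = 0.37). Of 3 ligands of the NKG2D receptor measured 0 were called, with Raet1e at -2.55 (adjusted p = 0.0612).

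Among 28 regulators of class I genes measured, 2 passed, both lower in the iPS lines than in MEF, where 8.17% of all genes were called higher and 2.75% lower. They were the subunits of the interferon gamma receptor. Ifngr1 averaged 2.04 ± 0.34 in the lines and read 3.71 in the spheres, 1.90 in ES and 3.88 in MEF, with a difference from MEF of -1.84 (SE 0.44, adjusted p = 0.0255). Ifngr2 averaged 0.50 ± 0.95 in the lines and read 4.02 in the spheres, 0.04 in ES and 4.29 in MEF, with a difference of -3.79 (SE 0.94, adjusted p = 0.0281), and its highest lines were purmorphamine-Oct4 line 2 at 2.20 and tail-tip line 2 at 1.92. Jak2, a kinase bound to that receptor, was at -3.21 (adjusted p = 0.0617) and Irf2 at -3.26 (adjusted p = 0.225), while Irf8 was at 2.83 (adjusted p = 0.0657) and Nfyc, a CCAAT-binding subunit, at 2.26 (adjusted p = 0.105). The calls on both receptor genes were lost with slide as a fixed block and in the model of 8 groups. The Ifngr1 call was also lost without the 3 lines most like MEF (limma adjusted p = 0.0545). Ciita, the master activator of class II genes, passed higher, at -0.25 ± 0.44 in the lines (SD, n = 9) and -4.25 in MEF (difference 4.005, adjusted p = 0.000869), as did the class II gene H2-Oa (difference 3.80, adjusted p = 0.0302), whose call was lost with slide as a fixed block, in the model of 8 groups, after quantile normalization and without the tail-tip lines. Without the 3 lines most like MEF the H2-Oa call was lost too (limma adjusted p = 0.067). None of the 17 interferon-stimulated genes passed against MEF by limma, although 16 had negative differences, with a median of -3.94. Some of these lines were dim: Ifit3 and Ifih1 were well above background in 4 of the 9 lines, Iigp1 in 3 and Ifi44 in 8. Ifi44 differed by -5.85. Of the 17 genes 4, named after their values were seen, had an unadjusted p under 0.05 (Irgm1 0.0118, Bst2 0.0137, Irf7 0.0252 and Ifi44 0.0442), where 27.6% of all genes did.

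The 8 genes whose pattern over the 12 arrays was most like the mean profile of the 9 members, out of 20191 genes well above background on at least 6 arrays, were the transcript BG921888 (Pearson r = 0.98), Efemp1 (0.97), Ifi204 (0.97), D330040H18Rik (0.96), Ifi202b (0.96), Tmem176b (0.96), Tm4sf1 (0.95) and Zeb2 (0.95). Efemp1 encodes a fibulin of the extracellular matrix, Ifi204 and Ifi202b are interferon-inducible, and Zeb2 is a repressor of epithelial genes. The arrays share their normalization, and the values describe likeness only.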

How the data were processed

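Total RNA of 12 samples was labelled with Cy3 and hybridised once each, per the labels. The deposited spot intensity is Agilent Feature Extraction 9.5.3.1 output, with background already subtracted in the processed signal, per the file headers. From it, log2 of the processed signal minus the array's 75th percentile was computed here. Flagged outlier spots were left out and spots of a probe averaged. A gene took its probe with the highest mean. Probe names were updated by accession where the RefSeq table allowed.

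Differences of the 9 iPS lines from MEF and from ES came from a model of 4 classes, and groups of lines in a model of 8 groups, with limma 3.58.1 in R 4.3.3 (lmFit and eBayes) and Benjamini-Hochberg adjustment over 25429 genes at 0.05. Single arrays were compared at 2-fold with no test. The code was tested on simulated data. Alternatives covered background correction, scaling, filter, probe choice, slide, variance trend, lines left out and clone number.

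The members and gene lists were chosen with earlier results of these data known. Named were all members, list genes that passed, otherwise up to 4 per list from those with the largest differences from MEF, and the 8 genes most like the members' mean profile. Marker lists are given as summed levels and counts. The number of arrays limits the precision. Line numbers did not pair lines across groups: correlations of the line 1 minus line 2 differences ran from -0.163 to 0.242.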

Additional observations from a re-analysis of the deposited data

Results flagged for a closer look

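Tap2 in oxysterol-Oct4 line 2 stood apart from the other 8 iPS lines. Its level was -0.29, and the nearest line, purmorphamine-Oct4 line 2, was at -0.60, a gap of 0.551 of the whole range of the 9 lines. About 1 group in 20 is picked out in this way by chance.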

How the results depend on the processing

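Over all alternatives, 646 of 684 member values kept their direction and side of the threshold, 36 changed sign without passing, and 2 newly passed. Both came from leaving out the 3 lines most correlated with MEF, chosen after seeing the data: 2 members were called, B2m at -2.72 (limma adjusted p = 0.0313) and H2-D1 at -3.23 (adjusted p = 0.0284), and the choice of lines fixes their direction. Against MEF, the 2777 genes called became 1796 with slide as a fixed block and 0 within 1 slide. Against ES, the 7 genes called became 59 with normexp, 89 with quantile normalization, 2 with at least 6 arrays above background, 1 with the mean of probes, 2 with an intensity trend, and 0 with slide fixed, with 8 groups, without the tail-tip lines, within 1 slide and without the 3 MEF-like lines, and ranged from 0 to 7 leaving out 1 line. Without a filter, 2406 genes were called between Bmi1-Oct4 and hedgehog-agonist lines. In the spheres against MEF, 1 member was higher at 3-fold, and after quantile normalization 3 were higher and 1 lower. Sign changes against MEF were Tap2 -0.060 (quantile) and -0.0045 (slide fixed and within 1 slide), H2-K1 -1.63 (mean of probes) and -0.036 (without 3 lines), and Tapbp -0.12 (mean of probes) and -0.36 (unsaturated probe). Against ES they were Tapbp 0.041 (quantile), H2-D1 0.96 (mean of probes) and B2m -0.061 (without 3 lines). Between tail-tip and embryonic lines they were Tapbp 0.12 (quantile), H2-D1 -0.43 (mean of probes) and -0.10 (slide random), and Psmb8 -0.11 (slide random). For H2-D1 the mean of probes includes the dim probe placed elsewhere on chr17. Between Bmi1-Oct4 and hedgehog-agonist lines they were Tapbp 0.070 (quantile) and 0.043 (unsaturated probe), and B2m -0.10 (mean of probes) and -0.029 (slide random). Leaving out 1 line, tail-tip against embryonic differences ran from -0.15 to 2.32 for B2m, -0.30 to 0.60 for H2-K1, -1.09 to 1.38 for H2-D1, -0.034 to 2.67 for Tap1, -1.55 to 2.12 for Psmb8, -1.20 to 0.37 for Psmb10 and -0.24 to 1.38 for the members' median. Bmi1-Oct4 differences ran from -0.80 to 0.94 for B2m, -1.10 to 1.46 for H2-D1, -0.47 to 3.06 for Psmb8 and -0.18 to 0.36 for Psmb9. The causes were not tested. Slide as a fixed block could not be fitted between groups of lines.

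With line number as a replicate block, tail-tip against embryonic lines gave 0 members and 0 genes called and a member median of 0.15; the lines share only a number, and the pairing changed no call.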
